A study of Drosophila melanogaster with 12 samples.

Results

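The genes described here break down the aromatic amino acids phenylalanine, tyrosine and tryptophan, or turn tyrosine into dopamine. They were chosen by name, and 6 of the 8 chosen symbols, Hn, CG1461, v, cn, ple and Ddc, had a row among the 9500 genes of the expression table. The other 2, hgo and CG11796, were not analysed here. Fat bodies were taken from females at the end of larval life, when fully grown larvae wander off the food, and their RNA was sequenced, 3 biological replicates per diet and 12 libraries in all. The high-fructose diet (HFD) held 1.7 M fructose and its control (CFD) 0.3 M fructose, and the high-glucose diet (HGD) held 1.7 M glucose and its control (CGD) 0.3 M glucose. The comparisons ask how sugar concentration, and which of the sugars was fed, bear on expression in the fat body.

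All larvae, on every diet, came from males of the w1118 stock of the VDRC (Vienna Drosophila Resource Center) crossed to females carrying UAS-Dcr2 and r4-GAL4, and were reared at 25 °C. The r4-GAL4 driver is active in the fat body, so all groups, controls included, expressed Dicer-2 there. The growth notes also speak of RNA interference against InR, but the cross as described carries no such transgene and was taken as the control genotype. Each library came from bulk tissue, in which fewer cells of a type and less RNA per cell cannot be told apart.

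The larval fat body does much of the work that liver and adipose tissue share in mammals, including amino acid breakdown. Phenylalanine is hydroxylated to tyrosine by phenylalanine hydroxylase (Hn), with a pterin cofactor. Tyrosine then either loses its amino group to tyrosine aminotransferase (CG1461, now named Tat) and is degraded, or is hydroxylated to dopa by tyrosine hydroxylase (ple) and decarboxylated to dopamine by dopa decarboxylase (Ddc). Dopamine is a transmitter in neurons and, in the epidermis and blood cells, a source of cuticle tanning agents and melanin. Tryptophan is opened by tryptophan 2,3-dioxygenase (v, vermilion), and kynurenine 3-monooxygenase (cn, cinnabar) carries its product towards the brown eye pigments, with much of this work known from fat body and Malpighian tubule.

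Reads in listed genes, recovered from the deposited values, numbered 3484910 to 11134935 per HFD library, 8555745 to 9736564 per CFD library, 6916322 to 9239821 per HGD library and 8858114 to 9496778 per CGD library. HFD replicate 2 had the fewest of these reads, which count listed genes only and not all mapped reads. Of 10 fat body markers, among them Fbp1 and the storage protein Lsp2, 9 were listed. Their summed normalized value lay between 1450900 and 3232000 in every library. Markers of other tissues were also present. Every gene of the table had reads in every library, so no listed marker could be at 0. The summed value of 15 listed muscle markers of 16 was 31807 to 41712 on HFD, against 15882 to 27778 on CFD, and 27774 to 39938 on HGD, against 9122 to 16490 on CGD. Values below are the deposited normalized values, with those of the glucose libraries multiplied by 0.878 so that the median gene had the same level on both sugars. Fold changes are differences of log2(value + 1), and a gene was called where its adjusted p (limma, Benjamini-Hochberg over 9500 genes) was under 0.05.

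High fructose changed 2 of the 6 genes. CG1461 was higher and v was lower on HFD than on CFD, and the other 4 did not pass the test. High glucose changed 1 of the 6, CG1461, which was again higher on HGD than on CGD. Over all genes 19.3% were called between HFD and CFD, 9.4% higher and 9.93% lower, and 2 of 6 is not far from that share. Between HGD and CGD 29.6% were called, 16.7% higher and 12.9% lower, and 1 of 6 is no more than that. The median log2 fold change over the 6 genes was -0.12 between HFD and CFD and 0.46 between HGD and CGD, beside -0.017 and 0.013 over all genes. Single libraries carried both medians of the 6 genes. The first was 0.04 without HFD replicate 3, 0.12 without CFD replicate 2 and 0.07 without CFD replicate 3, ran to -0.35 without CFD replicate 1 and was -0.07 without HFD replicate 2. The second was 0.22 without CGD replicate 3.

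**Figure D1:**
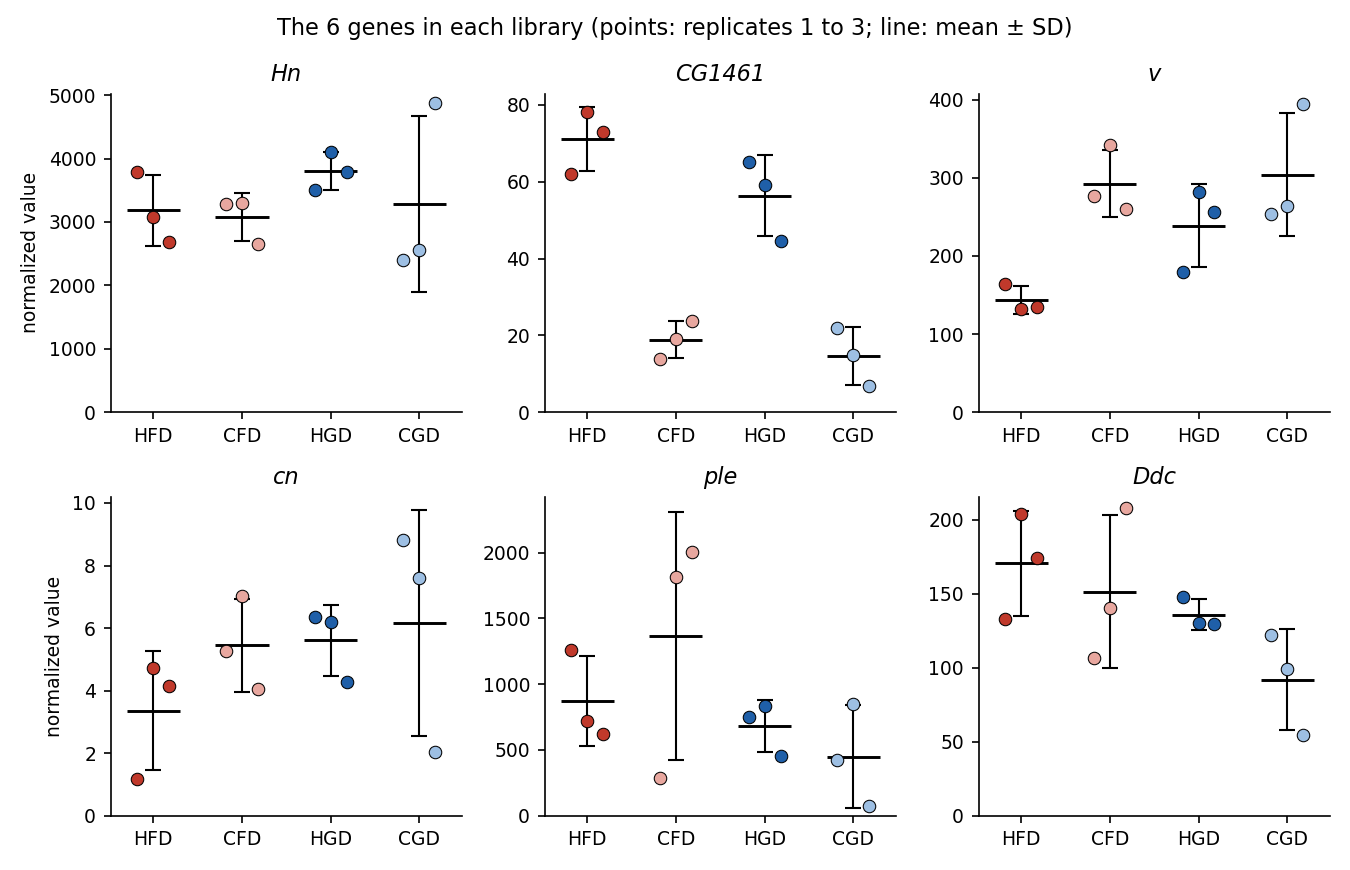
Normalized value (vertical axis, linear from 0, glucose libraries rescaled) of each of the 6 genes in every library. Points are the 3 replicates of a diet, horizontal lines the mean and vertical bars the SD. The high-sugar points of CG1461 (44.6 to 78.2) all lie above the control points (6.88 to 23.7), and the HFD points of v (133 to 164) lie below all the others.

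Phenylalanine hydroxylase did not pass the test on either sugar. Hn, on the plus strand of 3L at 7760453 to 7763166 (build BDGP6.54), had 3794.1, 3074.5 and 2685.5 in the HFD libraries, against 3287.5, 3297.7 and 2646.6 in the CFD libraries. On glucose it had 3509.9, 4108.8 and 3792.7 in the HGD libraries, against 2404.3, 2558.5 and 4877.9 in the CGD libraries. The diets overlapped in both comparisons, and CGD replicate 3 alone lay above every other library. The log2 fold change was 0.04 (SE 0.24, 95% interval -0.47 to 0.55, adjusted p = 0.924) between HFD and CFD and 0.29 (SE 0.24, 95% interval -0.22 to 0.80, adjusted p = 0.379) between HGD and CGD. Without CGD replicate 3, the HGD and CGD libraries differed by 0.61 on the log2 scale with an adjusted p of 0.0187, so 1 library decided whether Hn passed on glucose.

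Tyrosine aminotransferase had the largest fold change of the 6 genes on each sugar. CG1461, on the plus strand of X at 14261223 to 14265379, had 61.9, 78.2 and 73.1 in the HFD libraries, against 13.9, 19.1 and 23.7 in the CFD libraries. It had 65.1, 59.3 and 44.6 in the HGD libraries, against 22.0, 15.0 and 6.88 in the CGD libraries. On both sugars every high-sugar library lay above every control library. Between HFD and CFD the log2 fold change was 1.88 (SE 0.33, adjusted p = 0.00176), a 3.68-fold difference on that scale. Between HGD and CGD it was 1.99 (SE 0.33, adjusted p = 0.000743), a 3.97-fold difference. Groups did not overlap for 38% of all genes between HFD and CFD, 19% higher and 19.1% lower, and for 44.8% between HGD and CGD, 24% higher and 20.8% lower. The glucose response minus the fructose response was 0.11 with a 95% interval of -0.90 to 1.13, an interval that covers 0 and reaches about 1 on the log2 scale either way.

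The reads behind CG1461 were few, 28 to 88 per high-sugar library and 7 to 33 per control library. The call nonetheless held in all 20 alternatives tried for each sugar. The log2 fold change lay between 1.68 and 2.05 for HFD over CFD and between 1.56 and 2.34 for HGD over CGD. Some alternatives changed only the error and not the fold change. These were omitting a library of the other sugar, a replicate block and a fit of the diets compared only. For HFD over CFD, leaving the glucose libraries unscaled was another. In BDGP6.54, 1974 of the 2509 exon bases of CG1461 are shared with CG46317 on the same strand, and 643 with CG13404 on the other strand. Neither of these genes has values here. Reads of the exons shared with CG46317 cannot be told apart with or without strand. For those shared with CG13404 this depends on whether the counting used strand, which nothing in the sources used here says. The muscle markers given above were also higher on both high-sugar diets, with 6 of 15 called higher between HFD and CFD and 12 of 15 between HGD and CGD, and their part in the CG1461 difference was not tested.

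Further down the same branch, 3 other listed genes of tyrosine breakdown were examined. Faa, fumarylacetoacetase, the last step, rose on both sugars. It averaged 15.2 ± 7.78 on HFD and 5.98 ± 0.98 on CFD, and 26.1 ± 4.44 on HGD and 6.53 ± 2.24 on CGD (SD, n = 3 each), with log2 fold changes of 1.12 (SE 0.34, adjusted p = 0.0354) and 1.87 (SE 0.34, adjusted p = 0.00138). The pair of zeta-class glutathione transferases, a family that isomerizes maleylacetoacetate, did not rise. CG9363 (GstZ2) fell by 0.98 on the log2 scale between HGD and CGD (SE 0.22, adjusted p = 0.00572), and its fold change of -0.48 between HFD and CFD did not pass (adjusted p = 0.150). CG9362 (GstZ1) had log2 fold changes of 0.13 and -0.08. Of the 3 genes, 1 rose and 0 fell with high fructose, and 1 rose and 1 fell with high glucose. Without CFD replicate 1 Faa was no longer called between HFD and CFD, nor was it when libraries were scaled to their totals. Its levels were low, with 24.1, 10.8 and 10.5 in the HFD libraries, against 7.09, 5.25 and 5.59 in the CFD libraries.

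Of 5 listed genes that make or recycle the pterin cofactor of the hydroxylases, 2 fell and 0 rose with high fructose, and 3 fell and 0 rose with high glucose. Pu, GTP cyclohydrolase I, the first step of pterin synthesis, averaged 1406 ± 79.9 on HFD and 2074 ± 140 on CFD, and 1199 ± 223 on HGD and 1692 ± 97.8 on CGD (SD, n = 3 each). Its log2 fold changes were -0.56 (SE 0.15, adjusted p = 0.0167) and -0.51 (SE 0.15, adjusted p = 0.0182). Pcd, pterin-4a-carbinolamine dehydratase, which regenerates the cofactor after each hydroxylation, had log2 fold changes of -0.79 (adjusted p = 0.00367) and -0.69 (adjusted p = 0.00578). Sptr, sepiapterin reductase, fell by 0.81 on the log2 scale with high glucose (adjusted p = 0.0156), beside -0.10 with high fructose (adjusted p = 0.788). The other two, pr and Dhpr, passed in neither comparison. Without CFD replicate 1 or without HFD replicate 2, Pu lost its call between HFD and CFD and 1 gene of the list, Pcd, was called.

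**Figure D2:**
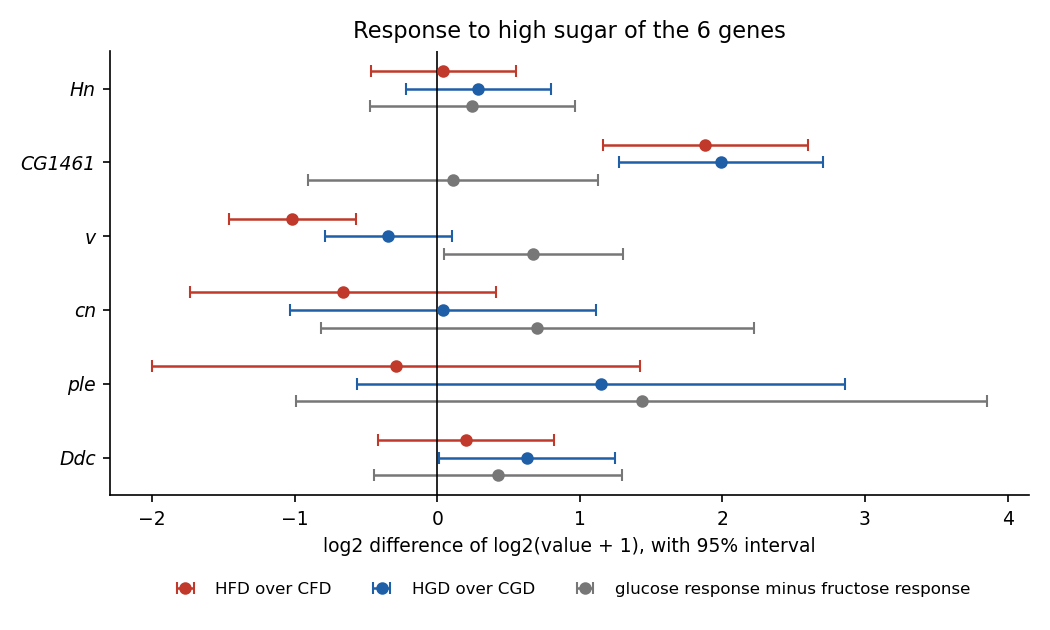
Difference in log2(value + 1) with its 95% interval (horizontal axis) for each of the 6 genes, HFD over CFD, HGD over CGD, and the glucose response minus the fructose response. Both CG1461 intervals (1.16 to 2.60 and 1.27 to 2.71) lie above 0 and the HFD interval of v (-1.46 to -0.57) lies below 0, while the intervals of ple are the widest.

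Tryptophan 2,3-dioxygenase was lower on high fructose. The gene v, on the plus strand of X at 10923972 to 10925631, had 164, 133 and 135 in the HFD libraries, against 277, 342 and 260 in the CFD libraries. No HFD library reached any CFD library, as was so for 19.1% of all genes. The log2 fold change was -1.02 (SE 0.21, 95% interval -1.46 to -0.57, adjusted p = 0.00411). The call held in all 21 alternatives, between -1.22 and -0.90. Some of these, as for CG1461, cannot move the fold change, nor can the filter on the mean value. On glucose v had 179, 281 and 256 in the HGD libraries, against 254, 263 and 395 in the CGD libraries, which overlapped. Its log2 fold change there was -0.34 (SE 0.21, 95% interval -0.79 to 0.10, adjusted p = 0.228), and it was -0.14 without CGD replicate 3 and -0.15 without HGD replicate 1. The 2 responses differed by 0.67 on the log2 scale, with a 95% interval of 0.04 to 1.305 and an adjusted p of 0.937, so the difference between the sugars did not pass the test over all genes. Among the high-sugar diets, each HGD library lay above each HFD library for v, a log2 difference of 0.71 (SE 0.21, adjusted p = 0.886), where 8.83% of all genes had libraries that did not overlap, 5.13% higher and 3.71% lower.

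Markers of the Malpighian tubule, another site of v expression, moved with the diets as well. The summed value of the 5 listed of 7 tubule markers was 266 to 361 on HFD, against 375 to 866 on CFD, and 256 to 345 on HGD, against 1012 to 1507 on CGD. Of these 5 markers, 2 were called lower between HFD and CFD and 4 between HGD and CGD. The part of these markers in the v difference was not tested.

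The next enzyme was close to the limit of detection. The gene cn, on the minus strand of 2R at 7782797 to 7785067, had 2 to 12 reads per library. Its values were 1.18, 4.74 and 4.16 in the HFD libraries, against 5.27, 7.01 and 4.05 in the CFD libraries. They were 6.34, 6.19 and 4.28 in the HGD libraries, against 8.81, 7.60 and 2.03 in the CGD libraries. The diets overlapped throughout, and at this depth no difference was detectable, with log2 fold changes of -0.66 (SE 0.50, adjusted p = 0.389) and 0.04 (SE 0.50, adjusted p = 0.961). In BDGP6.54, 1229 of its 1790 exon bases face the antisense RNA asRNA:CR45108, so these few reads cannot be assigned to cn with certainty.

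Among 6 other listed genes of kynurenine handling and eye pigment, 1 rose and 2 fell with high fructose, and 2 rose and 1 fell with high glucose. The gene kar, karmoisin, which encodes a putative monocarboxylate transporter known from its eye colour mutant, fell on both sugars. It averaged 108 ± 41.8 on HFD and 354 ± 64.3 on CFD, and 125 ± 38.8 on HGD and 387 ± 128 on CGD (SD, n = 3 each), log2 fold changes of -1.75 (SE 0.30, adjusted p = 0.00129) and -1.62 (SE 0.30, adjusted p = 0.00141). CG6950 (Kyat), a kynurenine aminotransferase, averaged 383 ± 91.2 on HGD and 179 ± 12.3 on CGD, a log2 fold change of 1.07 (adjusted p = 0.000596), beside 0.37 for HFD over CFD (adjusted p = 0.147). The pigment precursor transporter st averaged 1.996 ± 0.63 on HFD and 9.41 ± 5.32 on CFD, a log2 fold change of -1.68 (adjusted p = 0.0203). It did not pass on glucose (-0.76, adjusted p = 0.225) and was at low levels, with 1.32, 2.58 and 2.09 in the HFD libraries. Its partner w had log2 fold changes of 0.54 (adjusted p = 0.0472) and 0.84 (adjusted p = 0.00322), higher on both sugars. These larvae had a w1118 parent, and reads of the w locus and of a white marker that transgenes may carry cannot be told apart. Between HFD and CFD, w was not called without HFD replicate 2 and neither w nor st without CFD replicate 1, and w was not called when libraries were scaled to their totals. Without CGD replicate 3, CG9542, kynurenine formamidase, was called higher on HGD, so that 3 rose.

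Tyrosine hydroxylase varied widely among replicates of one diet. The gene ple, on the minus strand of 3L at 6713356 to 6719525, had 1259, 724 and 623 in the HFD libraries, against 284, 1817 and 2002 in the CFD libraries. It had 748, 837 and 457 in the HGD libraries, against 422, 853 and 72.3 in the CGD libraries. The control diets each held a library far below the others, CFD replicate 1 and CGD replicate 3, and the spread ran to 7.06-fold within CFD and 11.8-fold within CGD. The pooled SD between replicates was 1.26 on the log2 scale, at percentile 99.55 of all genes, whose median was 0.273. The log2 fold change was -0.29 (SE 0.80, 95% interval -1.9998 to 1.42, adjusted p = 0.842) between HFD and CFD and 1.15 (SE 0.80, 95% interval -0.57 to 2.86, adjusted p = 0.295) between HGD and CGD. Single libraries carried these values. Between HGD and CGD the log2 fold change was 0.13 without CGD replicate 3 and 1.91 without CGD replicate 2. Between HFD and CFD it was -1.20 without CFD replicate 1, -0.59 without HFD replicate 1, -0.19 without HFD replicate 2, -0.08 without HFD replicate 3, 0.13 without CFD replicate 2 and 0.20 without CFD replicate 3. Both intervals cover 0 and differences of more than 1 on the log2 scale.

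Dopa decarboxylase did not pass on either sugar. Ddc, on the minus strand of 2L at 19116483 to 19120306, had 133, 204 and 174 in the HFD libraries, against 106, 140 and 208 in the CFD libraries, and these overlapped. It had 148, 130.1 and 129.7 in the HGD libraries, against 122, 99.0 and 54.8 in the CGD libraries. Each HGD library lay above each CGD library, as was so for 24% of all genes. The log2 fold change was 0.20 (SE 0.29, adjusted p = 0.670) between HFD and CFD and 0.63 (SE 0.29, 95% interval 0.01 to 1.25, adjusted p = 0.112) between HGD and CGD, where it was 0.30 without CGD replicate 3. In BDGP6.54 Ddc shares 88 of its 2797 exon bases with CG10561 on the other strand, whose own values averaged 42.8 ± 7.73 on HFD, 34.6 ± 9.19 on CFD, 44.5 ± 3.85 on HGD and 33.8 ± 6.72 on CGD (SD, n = 3 each).

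CGD replicate 3 had the lowest ple, Ddc and CG1461 and the highest Hn and v of all 12 libraries. This library and CFD replicate 1 also had the lowest summed muscle markers of their diets, 9122 and 15882, and the lowest summed epidermis and cuticle markers (8 listed of 15), 994 and 1537. The other libraries summed to 1364 and 1800 in CGD and to 1774 and 1793 in CFD for the epidermis list, against 2174 to 2611 on HFD and 1658 to 1865 on HGD. CGD replicate 3 also had the highest summed fat body markers of all 12 libraries, 3232000, against 1519100 and 1671500 in the other CGD libraries. Its summed salivary gland markers (6 listed of 6) were the lowest, 1894, against 7128 and 4608. Its summed Malpighian tubule markers were the highest of all 12 libraries, 1507, against 1012 and 1133. CFD replicate 1 had the highest tubule sum of its diet, 866, and the highest midgut sum of all 12 libraries, 15780. The part of these markers in the values of the 6 genes in CGD replicate 3 and of ple and Ddc in CFD replicate 1 was not tested.

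**Figure D3:**
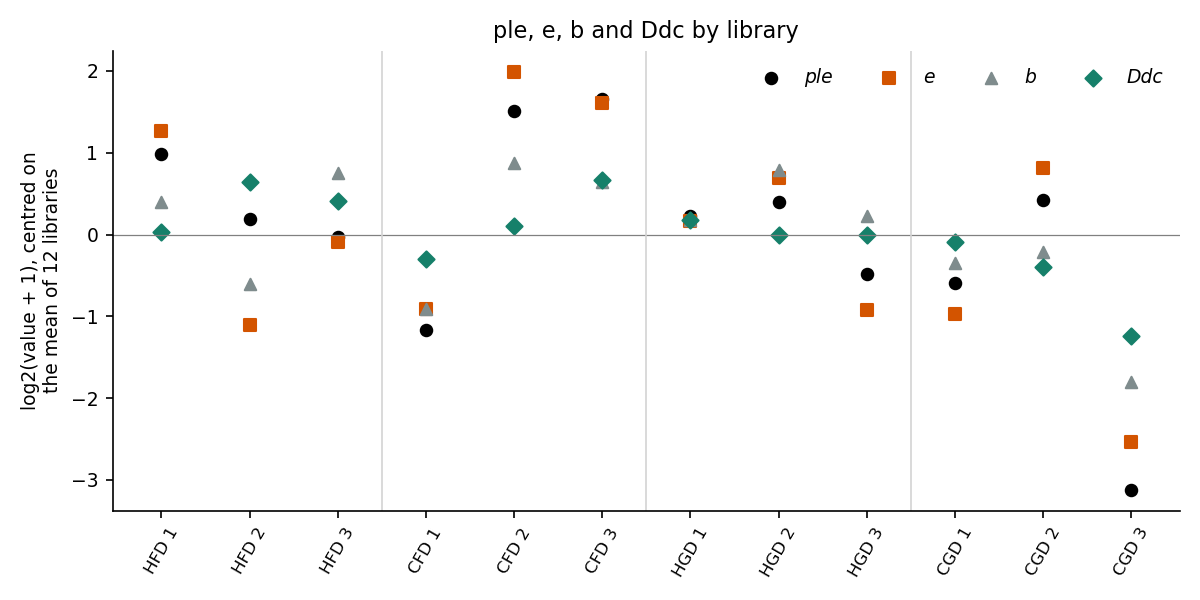
Level of ple, e, b and Ddc in each library as log2(value + 1) minus the mean of the 12 libraries (vertical axis), with the replicates of each diet side by side. All 4 genes are low in CFD replicate 1 and CGD replicate 3, and e is close to ple in most libraries.

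The gene e, ebony, which joins dopamine to beta-alanine for tanning, was close to ple from library to library. It had 605, 116 and 237 in the HFD libraries, against 134, 1005 and 774 in the CFD libraries, and 283, 407 and 133 in the HGD libraries, against 128, 443 and 42.6 in the CGD libraries. Like ple, it was lowest in CGD replicate 3 and low in CFD replicate 1. The gene b, black, which makes beta-alanine from aspartate, had 39.7, 19.4 and 51.1 in the HFD libraries, against 15.4, 55.7 and 47.1 in the CFD libraries, and 34.0, 52.2 and 35.2 in the HGD libraries, against 23.2, 25.6 and 7.88 in the CGD libraries. Likeness was measured as the mean absolute difference of centred log2(value + 1) over the 12 libraries, where 0 means the same pattern. It was 0.38 between ple and e, at rank 2 of all genes, 0.62 between ple and b, at rank 26, and 0.77 between ple and Ddc, against a median of 0.96 between ple and all genes.

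Of 19 other listed genes of dopamine, melanin and sclerotization, 0 rose and 4 fell with high fructose, and 0 rose and 6 fell with high glucose. PO45 (PPO2), a prophenoloxidase stored in crystal cells of the blood, averaged 427 ± 111 on HFD and 1651 ± 651 on CFD, and 518 ± 118 on HGD and 1622 ± 463 on CGD (SD, n = 3 each). Its log2 fold changes were -1.91 (SE 0.29, adjusted p = 0.000542) and -1.64 (SE 0.29, adjusted p = 0.00101). The crystal cell list held 5 names, old and new symbols included, of which 2 were listed, PO45 and lz. Both were called lower on both sugars. Their summed value was 335 to 551 on HFD, against 1178 to 2419 on CFD. On glucose it was 390 to 603 on HGD, against 1275 to 2173 on CGD. Most of the sum was PO45 (2387 of the 2419 in CFD replicate 1), so it mainly repeats the fall of PO45. The gene t, tan, which splits the conjugate that e makes and so frees dopamine, had log2 fold changes of -1.16 (adjusted p = 0.00886) and -1.28 (adjusted p = 0.00325). The Yellow family gene yellow-e2 fell on both sugars, at -1.05 (adjusted p = 0.0457) and -1.13 (adjusted p = 0.0233). Another of that family, yellow-f, whose product acts on dopachrome in melanin formation, fell with high fructose at -0.62 (adjusted p = 0.0217) and had -0.21 with high glucose (adjusted p = 0.372). With high glucose yellow-e3 and yellow-h fell at -1.32 (adjusted p = 0.0263) and -1.73 (adjusted p = 0.0440), as did amd, a relative of Ddc, at -1.32 (adjusted p = 0.0359), all 3 at low levels (means of 1.68 to 7.96 on HGD and CGD). Without HFD replicate 2 or without CFD replicate 1, 2 of the 19 genes, t and PO45, were called between HFD and CFD, and yellow-e2 was not called there without CGD replicate 3 either. Without HFD replicate 2, yellow-h was not called between HGD and CGD. Without CGD replicate 3 the count between HGD and CGD was 2 higher, yellow-d and yellow-f2, and 4 lower, with yellow-e2 and yellow-h no longer called.

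Of 4 listed genes that make or carry amines, Trh, a tryptophan hydroxylase that opens the serotonin branch, rose with high glucose to 20.3 ± 10.9 on HGD, against 5.98 ± 1.42 on CGD (SD, n = 3 each). The difference was 1.49 on the log2 scale (SE 0.40, adjusted p = 0.0135). It had 0.50 with high fructose (adjusted p = 0.421), and the other 3 genes passed in neither comparison. Of 6 listed regulators known to act on ple or Ddc, EcR, the ecdysone receptor, rose with high glucose by 0.51 on the log2 scale (SE 0.15, adjusted p = 0.0191), beside 0.27 with high fructose (adjusted p = 0.210), and the other 5 passed in neither. Without these regulators, 2 of 37 pathway genes rose and 8 fell with high fructose, and 4 rose and 11 fell with high glucose. Over all genes 9.4% were called higher and 9.93% lower with high fructose, and 16.7% higher and 12.9% lower with high glucose. The median log2 fold changes of the 37 genes were -0.27 and -0.17, beside -0.017 and 0.013 over all genes. With libraries scaled to their totals, Trh and EcR were not called. None of these lists held a gene for which the responses to the 2 sugars differed at the threshold.

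**Figure D4:**
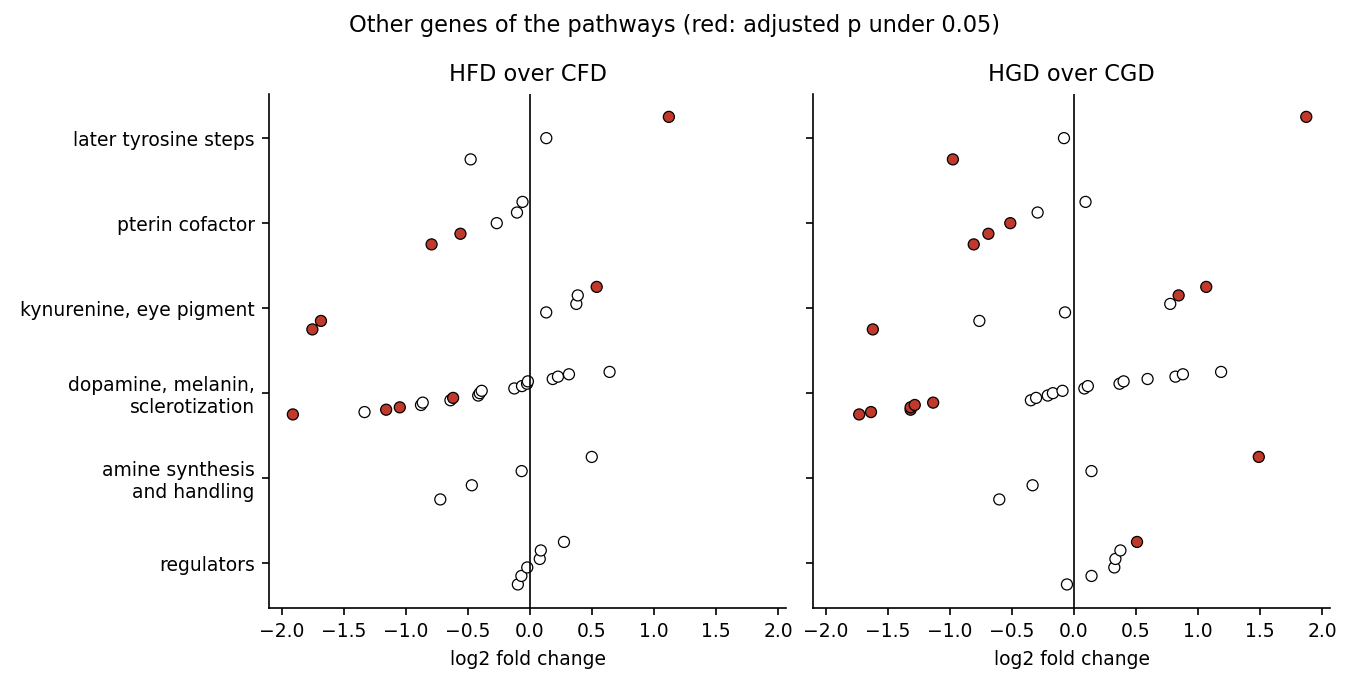
Log2 fold change (horizontal axis) of each listed gene of the 6 pathway lists, HFD over CFD in the left panel and HGD over CGD in the right panel, with genes of adjusted p under 0.05 in red. In the dopamine, melanin and sclerotization list all red points, 4 and 6, lie below 0.

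Glucose and fructose were compared at equal concentration. No member passed between HGD and HFD or between CGD and CFD, and limma called 0 of 9500 genes in each, with 490 and 394 genes at an unadjusted p under 0.05. Of the 6 members 1 (v) was under that unadjusted limit between HGD and HFD and 2 (ple and Ddc) between CGD and CFD. On the control diets ple had a log2 difference of -1.76 between CGD and CFD (SE 0.80, 95% interval -3.48 to -0.05) and Ddc one of -0.73 (SE 0.29, 95% interval -1.35 to -0.12), both with an adjusted p of 0.9998. Without CGD replicate 3 these differences were -0.75 for ple and -0.40 for Ddc. That of ple was also -2.68 without CFD replicate 1, and that of Ddc -0.48 without CFD replicate 3. Between CGD and CFD the 6 salivary gland markers had a median of -1.74, with 6 of 6 at an unadjusted p under 0.05, and the 15 muscle markers a median of -0.87, with 13 of 15, none called, and their part in ple and Ddc was not tested. The libraries of CGD and CFD overlapped for all 6 members, and did not for 8.51% of all genes, 3.46% higher and 5.04% lower. For Hn, CG1461 and cn the log2 differences were 0.27, -0.34 and 0.70 between HGD and HFD and 0.02, -0.45 and 0.0042 between CGD and CFD. The glucose response minus the fructose response was positive for all 6 genes, with a median of 0.55 beside 0.07 over all genes. Without CGD replicate 3 the median was 0.29 and CG1461 was at -0.32, and without HFD replicate 1 the median was 0.32. CG1461 was at -0.06 without CFD replicate 3 and at -0.00034 without HGD replicate 1. It passed for none of the 6 and for 0 of 9500 genes, with 405 genes and 1 member (v) at an unadjusted p under 0.05. The limma-voom test on recovered reads also called 0 genes in these 3 comparisons. The paper's own edgeR exact tests of pairs of diets did call a few genes between glucose and fructose, none of them among these 6.

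The 6 genes covered a wide range of levels. Per kb of merged exon in BDGP6.54, the median over the 12 libraries was 1557 for Hn, 198 for v and 193 for ple. It was 47.0 for Ddc, 13.6 for CG1461 and 2.79 for cn. This scale compares genes only as far as the counted exons were those of BDGP6.54. Hn was above v in 12 of 12 libraries, by 5.85-fold to 14.3-fold. The neighbours v and ple could not be ordered, since v was the higher in 4 of 12 libraries only. The gene ple was above Ddc in 11 of 12 libraries, all but CGD replicate 3, and the orders of Ddc over CG1461 and of CG1461 over cn held in 12 of 12. By diet, CG1461 per kb averaged 28.3 ± 3.31 on HFD and 7.54 ± 1.96 on CFD, and 22.5 ± 4.204 on HGD and 5.83 ± 3.01 on CGD (SD, n = 3 each). With this exon length it stayed below Ddc even on the high-sugar diets. Of the exon bases of CG1461, 1974 of 2509 are shared with CG46317, and of those of cn 1229 of 1790 with asRNA:CR45108. If reads there were not counted, the levels per kb of CG1461 and cn are too low. Their place in the order is therefore not settled.

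**Figure D5:**
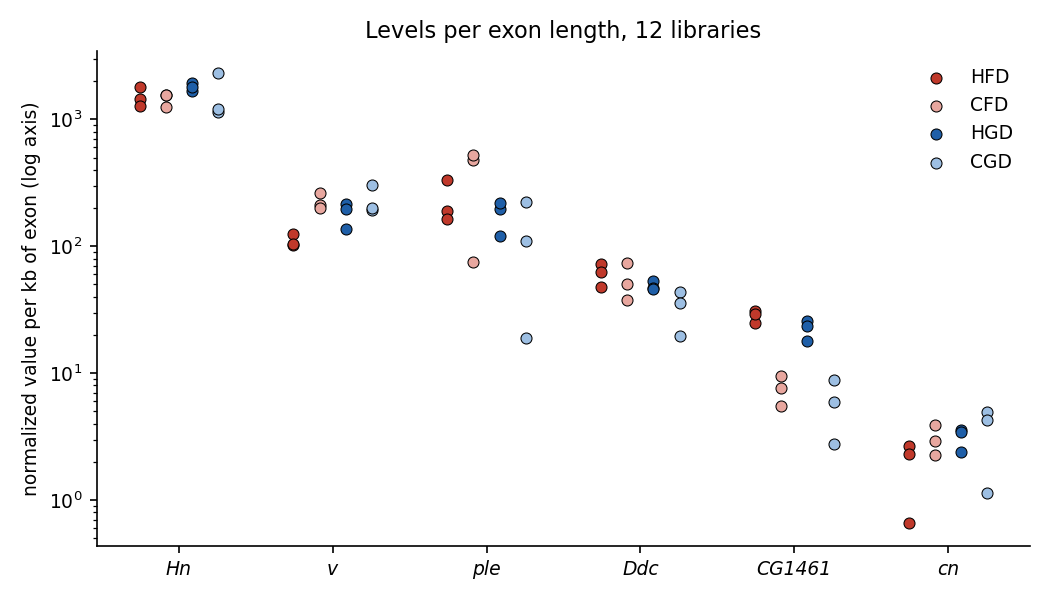
Normalized value per kb of merged exon (vertical log axis) of each gene in each of the 12 libraries, with one colour for each diet. Hn lies highest (median 1557) and cn lowest (median 2.79). The points of ple (19.0 to 526) run both below and above those of v (102 to 302).

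The genes whose pattern over the 12 libraries was most like each member were found over the whole table by the same measure. For Hn these were CG4670 (Qsox1, a sulfhydryl oxidase) at 0.067 and CG6543 (Echs1, an enoyl-CoA hydratase) at 0.078, against a median of 0.38 over all genes. For CG1461 they were Shab, a voltage-gated potassium channel, at 0.25 and hlk at 0.27, against a median of 0.98. Shab had 130, 199 and 179.6 in the HFD libraries, against 43.9, 45.6 and 58.4 in the CFD libraries, and 169, 142 and 149 in the HGD libraries, against 31.6, 35.5 and 32.5 in the CGD libraries. For v they were CG3999, a glycine cleavage enzyme, at 0.14 and CG30414 at 0.14, against 0.49. CG3999 had 1688, 1254 and 1099.5 in the HFD libraries, against 2399, 2785 and 2397 in the CFD libraries, and 1294, 1938 and 2006 in the HGD libraries, against 1845, 2031 and 2979.5 in the CGD libraries. For cn they were snoRNA:Psi18S-841c at 0.22 and Syt12, a synaptotagmin, at 0.23, against 0.55, for ple CG7906 at 0.37 and e at 0.38, and for Ddc tsh, a zinc finger transcription factor, at 0.13 and CG2993 at 0.16, against 0.47. No other member was among the 2 nearest genes of any member, and the nearest member of ple, Ddc, stood at rank 234.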

How the data were processed

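RNA of 12 fat body libraries, 3 for each of 4 diets, was depleted of rRNA and sequenced. The paper's methods give an alignment to Ensembl release 72 with TopHat. The submitters' processing notes list Cufflinks 1.1.0, TopHat 1.3.2 and Bowtie 0.12.7 with build dm3, and it is not settled which of these the table came from. The authors deposited a normalized signal for 9500 genes, in which fructose and glucose libraries had each been brought to their own common size. That step was inverted to recover whole reads, which returned at least 99.989% of the values of each library within 0.001 relative or absolute difference. These reads serve to describe depth, for scaling to library totals and for limma-voom.

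The glucose values were multiplied by 0.878, and log2(value + 1) was fitted in R 4.3.3 by limma 3.58.1 (moderated by eBayes, trend on) with 4 diet groups and no filter, adjusted over 9500 genes at 0.05. The fit was tested on simulated data. Exon lengths and positions came from BDGP6.54, Ensembl release 115, in which 9073 gene IDs were found, and 4 symbols that had turned into dates were replaced by ID. Intervals and depth cover the spread between these replicates only. Alternatives were other pseudocounts (0.1 and 5), a mean value of at least 50, other scalings, a replicate block, fits of the diets compared only and each library left out. The text names all members, from each of 6 pathway lists the genes that passed (up to 6, largest mean change first), and the 2 genes nearest each member. The genes b, CG9362, CG9542, pr, Dhpr, yellow-d, yellow-f and yellow-f2 fall outside this rule and were named after their values were seen. The members and lists were chosen with earlier results of these data known. Markers of neurons (10 listed of 10) had 0 called on either sugar, of hemocytes (6 of 6) 1 higher and 4 lower on HFD and 1 higher and 5 lower on HGD, of midgut (10 of 12) 1 higher and 6 lower, then 1 and 5, of salivary gland (6 of 6) 0, then 1 higher and 0 lower, of ring gland (3 of 6) 1 higher and 1 lower, then 2 and 1, of epidermis 2 higher and 0 lower, then 3 and 1, and of fat body 1 higher and 2 lower, then 0 and 2.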

Additional observations from a re-analysis of the deposited data

How the results depend on the processing

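CG1461 kept its direction and its call on both sugars under every alternative that could be run, and v kept both on fructose. With a mean value of at least 50, CG1461 and cn leave the table by construction and 1 member was called between HFD and CFD and 0 between HGD and CGD. Scaling to library totals put the median of all genes at -0.22 between HFD and CFD and -0.20 between HGD and CGD, beside -0.017 and 0.013, with 406 higher and 907 lower calls and 622 higher and 1274 lower, beside 893 and 943, and 1584 and 1225, and the same members called. It turned the log2 fold change of Hn for HFD over CFD to -0.16, of cn for HGD over CGD to -0.13 and of cn for CGD over CFD to -0.0013. A pseudocount of 0.1 gave -0.038 for cn between CGD and CFD, and 5 gave -0.018 for cn between HGD and CGD.

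Leaving out each library in turn gave 1150 to 2033 called genes between HFD and CFD, lowest without HFD replicate 2 and 1219 without CFD replicate 1. Members called between HGD and CGD were 1 to 2, with 2 without CGD replicate 3, where Hn passed. Uncalled members changed sign. Their leave-one-out ranges of the log2 fold change were -0.091 to 0.16 for Hn, -1.20 to 0.20 for ple and -0.024 to 0.46 for Ddc between HFD and CFD, -0.49 to 0.35 for cn between HGD and CGD, -0.30 to 0.21 for Hn, -0.17 to 0.15 for v and -0.31 to 0.54 for cn between CGD and CFD, and -0.32 to 0.46 for the difference between the responses of CG1461. The cause of these changes was not tested.

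Same-numbered replicates did not deviate together, with correlations of -0.36 to 0.21 over 18 pairs and 2 above 0.1, so the numbers were not taken to pair the samples. With a replicate block 1590 genes were called between HFD and CFD and 2502 between HGD and CGD, with 2 and 1 members. The planned edgeR test on whole reads was not run. Chosen after seeing the data, limma-voom on recovered reads called 1661 and 2863 genes and 2 and 1 members. The counts per pathway list without single libraries and under library totals were also added after seeing the data, and no called gene of those lists changed its sign in them. Depth limits cn (2 to 12 reads per library) most.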
